A study of Rattus norvegicus with 5 samples.

Results

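Fibroblast growth factors (FGFs) and their receptors were examined in mesenteric fat taken from around the pancreas in male Wistar rats. The 10 genes considered were the ligands Fgf1, Fgf2, Fgf7, Fgf9, Fgf10, Fgf18 and Fgf21, the receptors Fgfr1 and Fgfr2, and the co-receptor Klb. They were chosen by name, with earlier results of these data known. Every probe set annotated with exactly 1 of these symbols was taken, which gave 17 probe sets for 9 genes, among 31042 non-control probe sets and 14217 named genes on the array. No probe set carries the symbol Klb in the annotation used, so Klb was not analysed here. A total of 2 rats had been fed a cafeteria diet, in which fat gave 66% of calories, and 3 rats standard chow, in which it gave 8%. Both diets were given for 30 days from the age of 7 weeks, and each of the 5 Affymetrix GeneChip arrays carried an independent sample of whole tissue. The values are log2 expression levels, and the number of arrays limits the precision of every comparison.

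FGFs are secreted signals that bind receptor tyrosine kinases on neighbouring cells. Most of them need heparan sulfate on the cell surface or in the matrix to do so, and the receptors then signal through the ERK and PI3K pathways. FGF21 belongs to the endocrine branch of the family, binds heparan sulfate poorly and travels in blood. It acts on fat cells through FGFR1 together with beta-Klotho, the product of Klb. In mice, FGF10 is needed for white fat to form, and FGF1 is made in visceral fat on a high-fat diet.

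Adiponectin (Adipoq), made by fat cells, read 13.11 and 13.28 on the cafeteria arrays, and 12.94, 13.09 and 13.08 on the standard arrays. The mean of 10 fat cell markers was 12.37 and 12.54 on the cafeteria arrays, and 11.92, 12.07 and 12.07 on the standard arrays. Both cafeteria arrays thus lay higher. Of the 10 markers, 9 were higher on both cafeteria arrays, with the largest difference in leptin (Lep), at 1.59. The other, complement factor D (Cfd), was lower on both, at -0.40. The mean of 9 fibroblast and progenitor markers was also higher on both cafeteria arrays, at 11.01 and 10.95, against 10.73, 10.84 and 10.86 on the standard arrays. These 9 had 6 positive and 3 negative differences, with a median of 0.11. Mfap5 and Pi16 differed by 0.81 and 0.78, while Pdgfrb, Dpp4 and Pdgfra differed by -0.51, -0.25 and -0.11. The mean of 9 endothelial markers was 8.39 and 8.83 on the cafeteria arrays, and 9.09, 9.01 and 9.12 on the standard arrays, so both cafeteria arrays lay lower. The diets overlapped on 10 macrophage markers (9.04 and 8.76 on the cafeteria arrays, and 9.34, 9.19 and 8.83 on the standard arrays) and on 9 T and B cell markers (5.80 and 5.08 on the cafeteria arrays, and 6.17, 6.18 and 5.72 on the standard arrays). They overlapped too on 10 smooth muscle and pericyte markers, at 8.61 and 8.21 on the cafeteria arrays, and 9.23, 7.82 and 10.30 on the standard arrays, where the mean difference was -0.70 and was -0.11 without standard replicate 3. Acinar transcripts of the pancreas were found on the array of standard replicate 1: all 11 acinar markers tested were highest there, with pancreatic lipase (Pnlip) at 10.11, against at most 4.45 on any other array. The acinar means were 4.50 and 4.60 on the cafeteria arrays, and 8.97, 4.12 and 4.26 on the standard arrays. Of 8 islet markers only insulin 1 (Ins1) passed the filter on dim probe sets, with a difference of 0.18. In whole tissue, fewer cells of a type and less RNA per cell cannot be told apart.

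Among the FGF genes, 3 ligands stood out: Fgf18, Fgf10 and Fgf21 were higher on both cafeteria arrays than on every standard array, by 2.09-fold, 1.54-fold and 1.47-fold. The receptors and the other ligands differed less or varied more between animals of the same diet. No FGF probe set passed an adjusted p of 0.05 over all probe sets, where the share called was 0% (limma, smallest adjusted p = 0.222 among the FGF probe sets). At an unadjusted p under 0.05 there were 3 of the 15 FGF probe sets that passed the filter, 1 each for Fgf18, Fgf10 and Fgf21, against 12.7% of all probe sets tested. All 3 were higher in cafeteria samples and 0 lower, against 6.05% and 6.62% of all probe sets tested. Without the filter it was 3 of 17, against 10.8% of all probe sets. The count was 6 of 15 without cafeteria replicate 2, and 0 once probe sets under the 50th percentile were dropped, which left out Fgf18, Fgf10 and Fgf21. The arrays of the diets did not overlap for 5 of 15, with 4 higher and 1 lower, against 27.4% of all probe sets tested, 13.3% higher and 14.1% lower. The median difference was 0.24 over the 15 FGF probe sets and 0.21 over all 17, against -0.0036 over all probe sets tested. It rested on cafeteria replicate 1: over the 15 it was 0.019 without that array and 0.43 without cafeteria replicate 2.

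**Figure D1:**
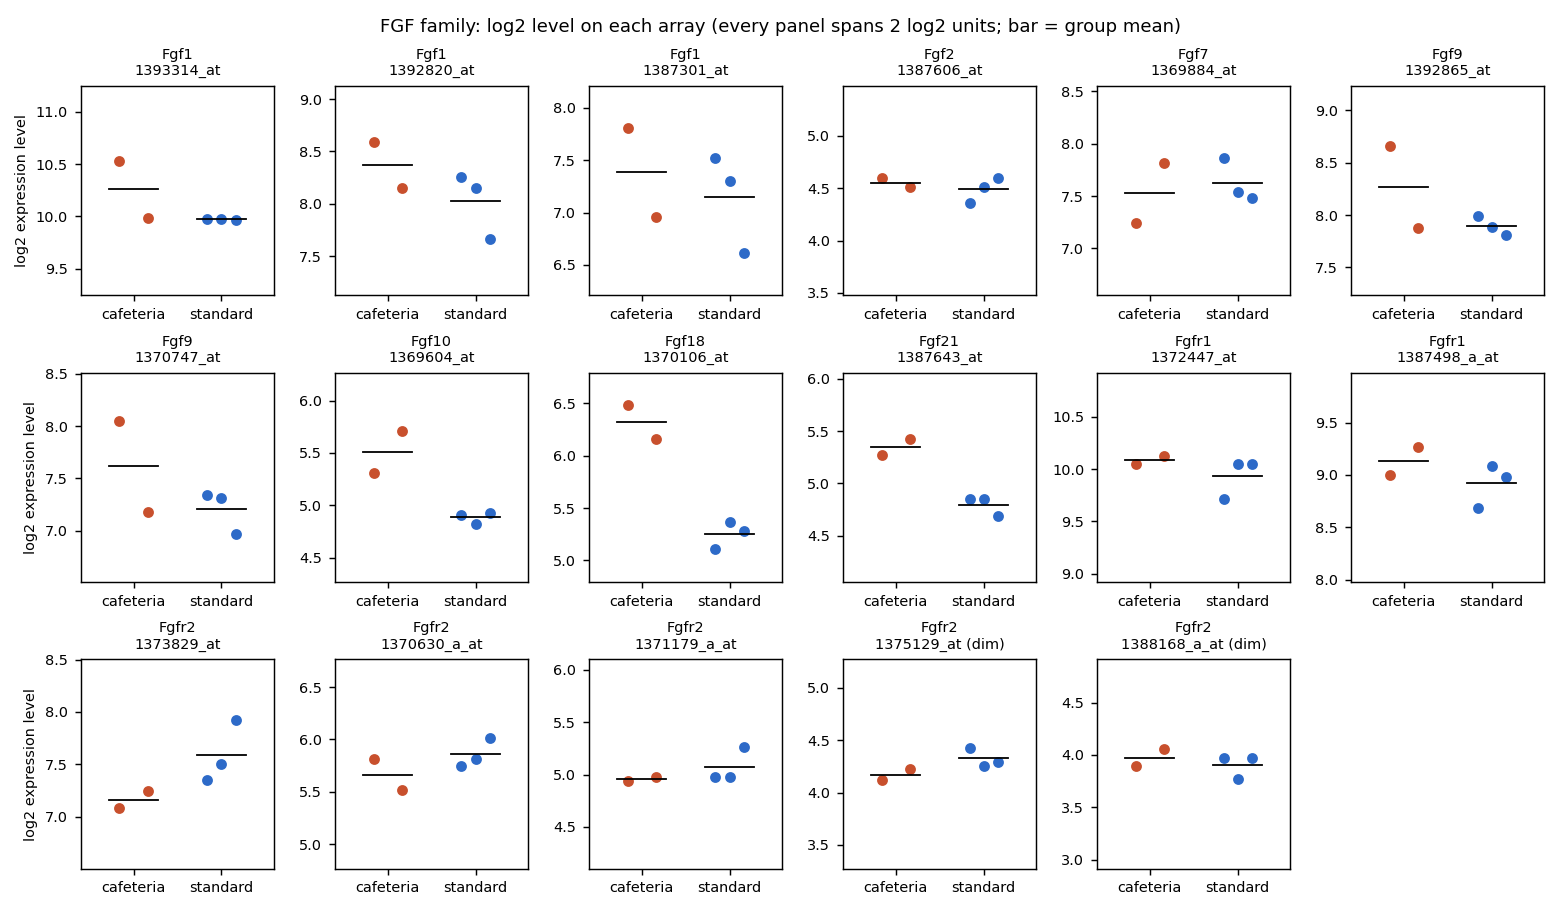
Log2 expression level (vertical axis, 2 log2 units in every panel) of each of the 17 FGF probe sets on the 2 cafeteria arrays (left, red) and the 3 standard arrays (right, blue); points are arrays and bars are group means. Fgf10, Fgf18 and Fgf21 have a clear gap between the diets, while in Fgf1 and Fgf9 a single cafeteria array stands high.

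Fgf18, a ligand known for its part in bone, cartilage and lung growth in mice, had the largest difference of the 17 probe sets. It read 6.48 and 6.16 on the cafeteria arrays, and 5.11, 5.37 and 5.28 on the standard arrays. The lowest cafeteria value lay 0.79 log2 units above the highest standard value. The means were 6.32 ± 0.23 (SD, n = 2) in cafeteria samples and 5.25 ± 0.13 (SD, n = 3) in standard samples. The difference was 1.07 ± 0.14 (SE), with a 95% interval of 0.70 to 1.43. It missed the threshold after adjustment (limma, adjusted p = 0.222). A two-sided exact permutation test gave p = 0.1, its lowest possible value with the 10 ways to split 5 arrays. With any array left out it stayed between 0.90 and 1.23.

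Fgf10 signals from connective tissue cells to the IIIb form of FGFR2, and in mice it promotes the growth and differentiation of fat cell precursors. It read 5.31 and 5.71 on the cafeteria arrays, and 4.91, 4.82 and 4.93 on the standard arrays. The standard arrays lay within 0.10 log2 units of each other, and both cafeteria arrays lay above them by at least 0.39. Cafeteria samples averaged 5.51 ± 0.28 (SD, n = 2) and standard samples 4.89 ± 0.05 (SD, n = 3). The difference of 0.63 ± 0.13 (SE), with a 95% interval of 0.27 to 0.98, did not pass (limma, adjusted p = 0.276; exact permutation test, two-sided, p = 0.1). The cafeteria arrays differed from each other by 0.40, and the difference was 0.83 with cafeteria replicate 1 left out and 0.43 with cafeteria replicate 2 left out.

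Fgf21, the endocrine member, is made mainly by liver but also by fat and, in mice, by the acinar pancreas. It read 5.27 and 5.43 on the cafeteria arrays, and 4.85, 4.85 and 4.69 on the standard arrays. The groups did not overlap, with a gap of 0.42. The means were 5.35 ± 0.11 (SD, n = 2) in cafeteria samples and 4.80 ± 0.09 (SD, n = 3) in standard samples, a difference of 0.55 ± 0.09 (SE) with a 95% interval of 0.32 to 0.78. It did not pass either (limma, adjusted p = 0.229; exact permutation test, two-sided, p = 0.1). The difference was 0.58 when standard replicate 1 was left out, and the part of acinar transcripts in the Fgf21 values was not tested.

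All 3 of these probe sets were dim. Their means over the 5 arrays lay at the 49.4th percentile of all non-control probe sets for Fgf18, the 42.5th for Fgf10 and the 41.0th for Fgf21, below the middle of the array. Probe sets bind their targets with different strength, so such a percentile describes brightness and does not rank the genes by abundance. The filter was set at a log2 level of 4.28, and the standard means of all 3 lay above it. The marker means of fat cells and of fibroblasts and progenitors were higher on both cafeteria arrays as well, and their part in these differences was not tested.

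The promoters of Fgf21 and Fgf10 are shown because both genes were higher on both cafeteria arrays and RefSeq gives each window wholly before the gene's start. Each is the 250 bases before the start in GRCr8, 5′ to 3′ on the gene's strand. Capitals mark matches to the motifs named next. The Fgf21 window is chr1:105221377-105221626 on the minus strand, and the Fgf10 window is chr2:52533689-52533938 on the plus strand.
Fgf21: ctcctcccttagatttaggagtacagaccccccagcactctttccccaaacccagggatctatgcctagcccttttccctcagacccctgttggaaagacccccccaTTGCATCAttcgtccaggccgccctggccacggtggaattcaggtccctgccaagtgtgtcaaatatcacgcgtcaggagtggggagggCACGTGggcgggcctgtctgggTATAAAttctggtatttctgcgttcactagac
Fgf10: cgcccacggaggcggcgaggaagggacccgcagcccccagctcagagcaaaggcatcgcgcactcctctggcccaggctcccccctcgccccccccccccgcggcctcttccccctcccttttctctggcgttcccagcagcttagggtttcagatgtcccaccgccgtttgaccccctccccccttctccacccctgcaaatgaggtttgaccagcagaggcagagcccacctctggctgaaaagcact

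A set of 4 motifs was searched on both strands, chosen with these sequences in view, and none of the matches overlapped. They were the TATA box TATAAA, the E-box CACGTG that carbohydrate-response factors bind, the stress-response element TGATGCAA (TTGCATCA on the other strand) that ATF4 binds, and the cyclic AMP element TGACGTCA. The Fgf21 window held a TATA box 32 to 27 bases before the start, an E-box 54 to 49 bases before it and the stress-response element on the other strand 143 to 136 bases before it. Of 33469 RefSeq promoter windows of this length, 12.9% held the TATA box, 5.59% the E-box, 0.693% the stress-response element and 1.59% the cyclic AMP element. The first 3 occurred together in 3 windows, that of Fgf21 among them. Since the motifs were chosen with the Fgf21 sequence in view, this count cannot measure how unusual the window is. The Fgf10 window held none of the 4, and was richer in G and C, at 67.2% against 56.4% for Fgf21. Of the 9 FGF genes with a window, 2 held any of these motifs: Fgf21, and Fgf7 with a TATA box on the other strand. The windows of Fgf1, Fgf7, Fgf9 and Fgf18 overlap the gene as RefSeq annotates it, so they are not wholly upstream. For this reason the Fgf18 sequence is not shown. Fgfr1 had no entry. A match describes letters in the window and not a working site.

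Fgf1, which lacks a classical secretion signal and binds all the FGF receptors, is measured by 3 probe sets. The brightest (1393314_at, at the 95.8th percentile) read 10.53 and 9.99 on the cafeteria arrays, and 9.98, 9.98 and 9.97 on the standard arrays. Cafeteria replicate 1 stood high, while cafeteria replicate 2 lay only 0.0091 above the highest standard array, so the groups were separated by that margin alone. The difference was 0.28 ± 0.17 (SE; limma, adjusted p = 0.505), and it was 0.01 without cafeteria replicate 1. Probe set 1392820_at read 8.59 and 8.15 on the cafeteria arrays, and 8.26, 8.15 and 7.66 on the standard arrays, a difference of 0.35 ± 0.24, or 0.12 without cafeteria replicate 1. Probe set 1387301_at read 7.81 and 6.96 on the cafeteria arrays, and 7.52, 7.30 and 6.61 on the standard arrays. The groups overlapped on both of these, and the difference on the last was 0.24 ± 0.39, and it turned to -0.18 without cafeteria replicate 1 and to -0.024 without standard replicate 3. On all 3 probe sets cafeteria replicate 1 was the highest array and standard replicate 3 the lowest.

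Fgf9, in mice a product of the mesothelium of the growing lung, gave the same arrays as highest and lowest on both of its probe sets. The brighter (1392865_at) read 8.66 and 7.87 on the cafeteria arrays, and 7.99, 7.89 and 7.81 on the standard arrays. The other (1370747_at) read 8.05 and 7.18 on the cafeteria arrays, and 7.34, 7.32 and 6.97 on the standard arrays. Cafeteria replicate 1 stood high on both, and cafeteria replicate 2 lay among the standard arrays. The differences were 0.37 ± 0.25 and 0.40 ± 0.30 (SE; limma, adjusted p = 0.526 and 0.547). Without cafeteria replicate 1 they were -0.024 and -0.033, and without cafeteria replicate 2 they were 0.76 and 0.84. The cafeteria animals differed from each other by 0.79 and 0.87 on these probe sets, more than the diets did.

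Markers of mesothelium, the cell layer that covers the mesentery, were also mostly highest on cafeteria replicate 1. The mean of 9 mesothelial markers was 9.60 and 8.75 on the cafeteria arrays, and 9.22, 9.13 and 9.04 on the standard arrays. Of the 9 markers, 8 were highest on cafeteria replicate 1, while 6 were lowest on cafeteria replicate 2 and 2 on standard replicate 3, the lowest array for Fgf9 and Fgf1. Mesothelin (Msln) read 11.41 and 10.27 on the cafeteria arrays, and 10.76, 10.76 and 10.67 on the standard arrays. The part of the mesothelial transcripts in the Fgf9 and Fgf1 values was not tested.

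**Figure D2:**
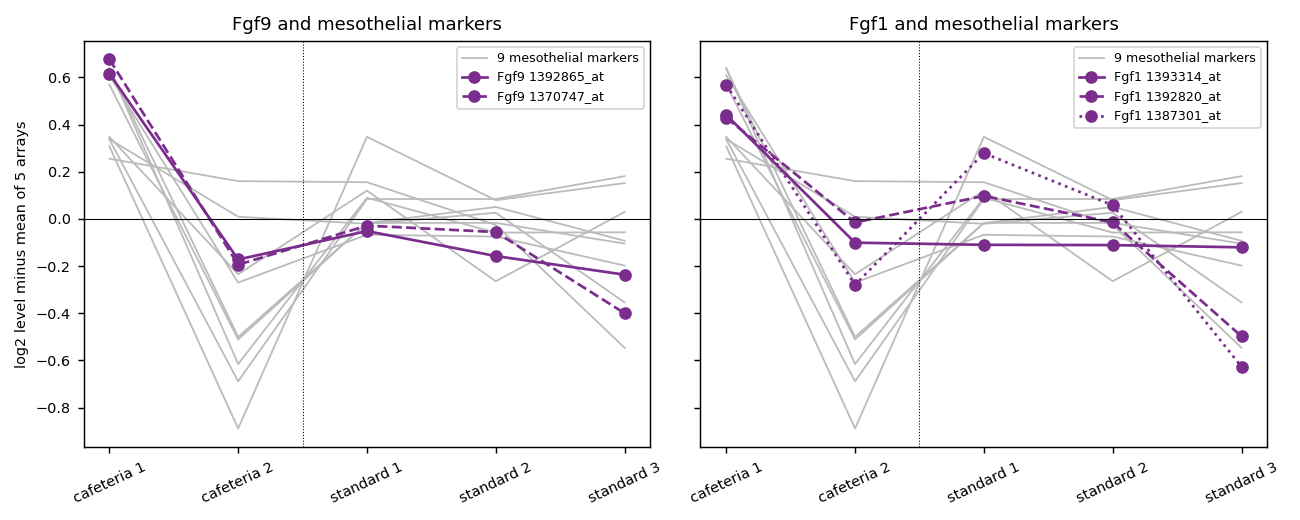
Log2 level minus the mean of the 5 arrays (vertical axis) on each array (horizontal axis, cafeteria left of the dotted line), for Fgf9 (left panel) and Fgf1 (right panel) in purple and for 9 mesothelial markers in grey; lines join the values of 1 probe set and imply no order of the arrays. Cafeteria replicate 1 is highest for every Fgf9 and Fgf1 probe set and for 8 of the 9 markers.

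The remaining ligands, Fgf7 and Fgf2, overlapped between the diets. Fgf7, a connective tissue signal to epithelia through the same receptor form as Fgf10, read 7.24 and 7.81 on the cafeteria arrays, and 7.87, 7.54 and 7.48 on the standard arrays. Its difference was -0.10 ± 0.22 (SE; limma, adjusted p = 0.837), and it turned to 0.18 without cafeteria replicate 1 and to 0.02 without standard replicate 1. Fgf7 was lowest on the array where Fgf1 and Fgf9 were highest. Fgf2, a mitogen stored on heparan sulfate in the matrix, was dim, at percentile 34.1, and read 4.60 and 4.51 on the cafeteria arrays, and 4.36, 4.51 and 4.60 on the standard arrays. Its difference was 0.06 ± 0.09, and the 95% interval of -0.17 to 0.30 takes in changes of either sign.

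The receptor Fgfr1, the main FGF receptor of fat cells and the partner of beta-Klotho for FGF21, was bright on both of its probe sets. Probe set 1372447_at read 10.05 and 10.13 on the cafeteria arrays, and 9.72, 10.05 and 10.05 on the standard arrays. The diets overlapped, since cafeteria replicate 1 had the same value as standard replicates 2 and 3. Probe set 1387498_a_at read 9.00 and 9.27 on the cafeteria arrays, and 8.69, 9.09 and 8.98 on the standard arrays. The differences were 0.15 ± 0.13 and 0.21 ± 0.16 (SE; limma, adjusted p = 0.585 and 0.547), with 95% intervals of -0.19 to 0.49 and -0.20 to 0.63. Standard replicate 1 was the lowest array on both, and without it the differences were 0.04 and 0.10.

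Fgfr2, the receptor whose IIIb form binds FGF7 and FGF10, is covered by 5 probe sets, of which 3 passed the filter. The brightest (1373829_at) read 7.08 and 7.24 on the cafeteria arrays, and 7.34, 7.50 and 7.92 on the standard arrays. It was the only FGF probe set tested on which the cafeteria arrays were both lower than every standard array, by 0.10. The means were 7.16 ± 0.12 (SD, n = 2) in cafeteria samples and 7.59 ± 0.30 (SD, n = 3) in standard samples, a difference of -0.43 ± 0.19 (SE; limma, adjusted p = 0.458). Standard replicate 3 was the highest array, and without it the difference was -0.26. That array also had the highest mean of smooth muscle and pericyte markers, 10.30. The order of the other arrays differed. The marker mean was lowest on standard replicate 2, at 7.82, where Fgfr2 read 7.50. It was 9.23 on standard replicate 1, and 8.61 and 8.21 on the cafeteria arrays. The part of these markers in the Fgfr2 value was not tested.

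The other Fgfr2 probe sets were dimmer. Probe set 1370630_a_at read 5.81 and 5.51 on the cafeteria arrays, and 5.75, 5.81 and 6.01 on the standard arrays, a difference of -0.19 ± 0.13, or -0.05 without cafeteria replicate 2. Probe set 1371179_a_at differed by -0.11 ± 0.11, and by -0.02 without standard replicate 3. The groups overlapped or met on both. The probe sets under the filter read 4.12 to 4.43 (1375129_at) and 3.76 to 4.06 (1388168_a_at) over the 5 arrays, and differed by -0.16 ± 0.07 and 0.07 ± 0.10 in the fit without a filter. The probe sets of Fgfr2 thus had 4 negative differences and 1 positive, and which receptor form each reads is not given in the sources used here.

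**Figure D3:**
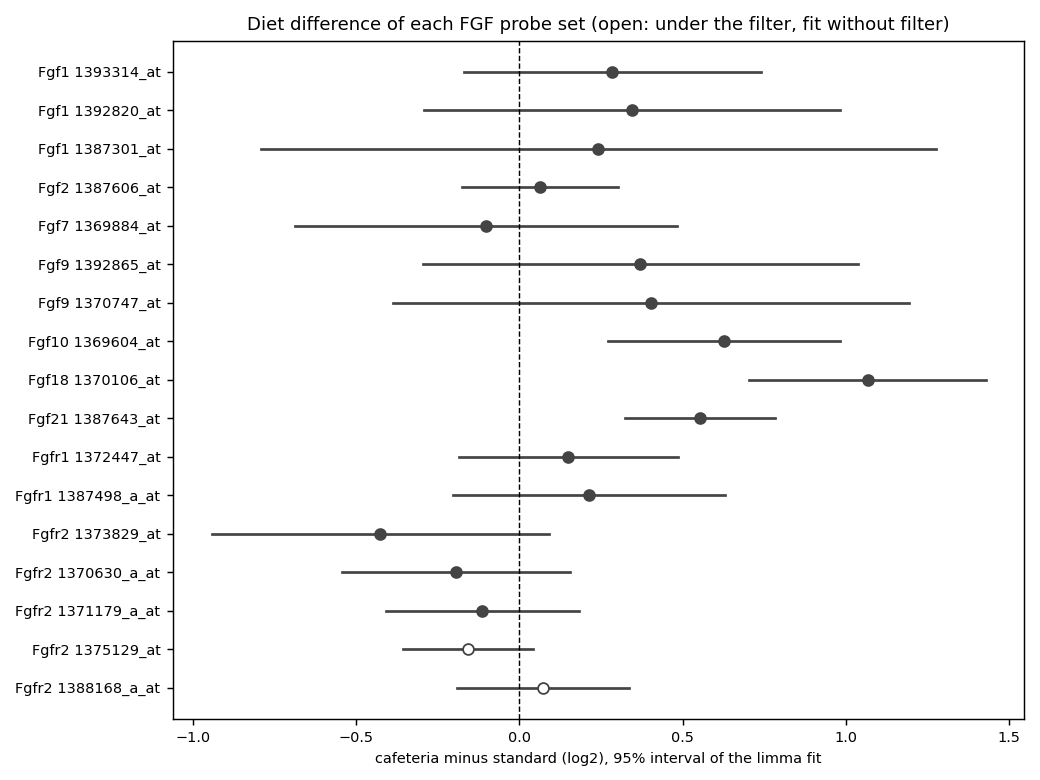
Difference between the diets (horizontal axis, cafeteria minus standard, log2) for each FGF probe set, as points with 95% intervals from the limma fit; open points are probe sets under the filter, taken from the fit without it. The intervals of Fgf10, Fgf18 and Fgf21 lie above 0, before any adjustment for the number of probe sets, and the others include 0.

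Animals on the same diet varied in these genes. On 9 of the 15 FGF probe sets tested, the cafeteria arrays lay further apart from each other than the means of the diets did. This count was not made over all probe sets, so it cannot set the FGF genes apart from others, and some genes have several of the 15. The 3 standard arrays spanned from 0.01 (Fgf1 on 1393314_at) to 0.91 (Fgf1 on 1387301_at). The median distance between the cafeteria arrays was 0.32 over the FGF probe sets, against 0.13 over all probe sets tested. An identical value on at least 2 arrays occurred in 5 of the 15, and in 46.7% of all probe sets tested, a feature of the deposited values that can make a spread look too small. Fgf10, Fgf18 and Fgf21 had no such ties.

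**Figure D4:**
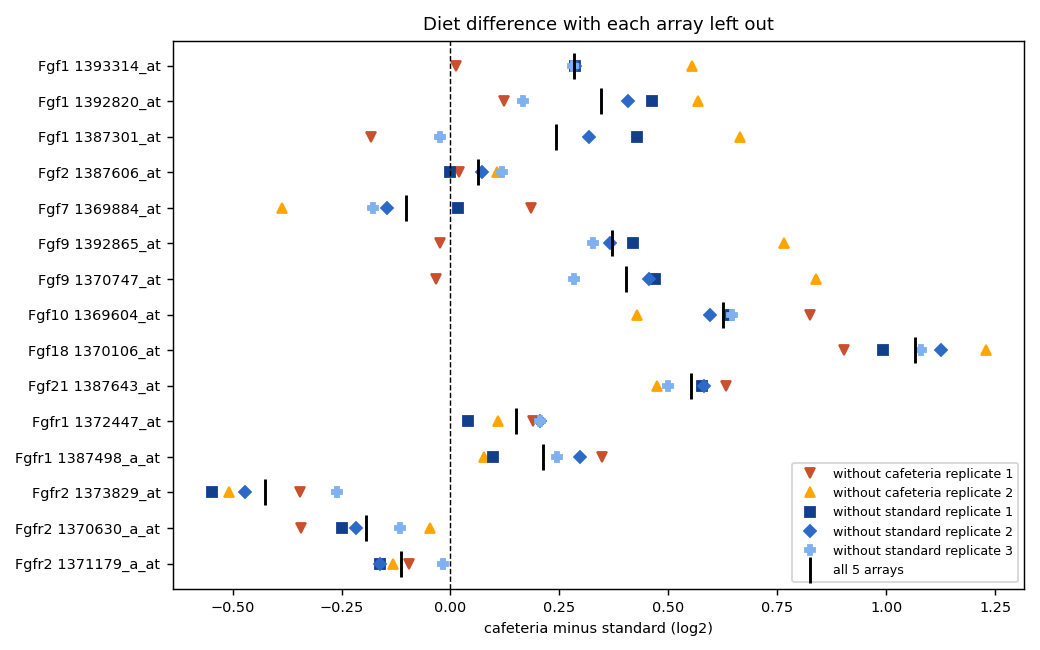
Difference between the diets (horizontal axis, cafeteria minus standard, log2) for the 15 FGF probe sets tested, with all 5 arrays (black bars) and with each array left out (symbols). Fgf18, Fgf10 and Fgf21 stay between 0.43 and 1.23 in every case, while Fgf9 moves to -0.024 and -0.033 without cafeteria replicate 1.

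The wider FGF pathway was read from 93 further genes, of which 66 passed the filter, with the brightest probe set standing for each gene. None passed an adjusted p of 0.05 in limma. At an unadjusted p under 0.05 there were 14, with 6 higher and 8 lower in cafeteria samples, against 13.6% of all genes tested, 6.73% higher and 6.88% lower. The count was 24 without cafeteria replicate 1, and 9 without standard replicate 1 and also without standard replicate 3. The median difference of the 66 was -0.04, against -0.0027 over all genes tested. By the same measure the 7 FGF ligands described above had a median of 0.37, which was 0.18 without cafeteria replicate 1, and the receptors Fgfr1 and Fgfr2 a median of -0.14, which was -0.077 without that array and -0.027 without standard replicate 3.

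Of 16 other genes of the FGF family, 5 passed the filter and 1 had an unadjusted p under 0.05. This was Fgf17, a relative of Fgf18 that read 4.49 and 4.53 on the cafeteria arrays, and 4.27, 4.41 and 4.19 on the standard arrays. Its difference was 0.22 ± 0.08 (SE, limma adjusted p = 0.394). Fgf17 was dim, with a standard mean of 4.29 just above the filter level of 4.28, and standard replicates 1 and 3 lay under that level. Fgf16 differed by 0.06. Fgf13 and Fgf12, homologous factors that act inside the cell and are not secreted ligands, differed by -0.19 and -0.14. The other 11 were under the filter or had no probe set with their symbol.

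Of 9 other receptors and partners, 6 passed the filter, with 1 higher and 1 lower at an unadjusted p under 0.05. Fgfrl1, a receptor-like protein that binds FGFs but lacks the kinase, read 10.11 and 10.41 on the cafeteria arrays, and 9.66, 9.77 and 9.82 on the standard arrays, a difference of 0.51 ± 0.11 (SE; limma, adjusted p = 0.276). Fgfr3, a receptor for FGF9 and FGF18, read 6.72 and 6.85 on the cafeteria arrays, and 7.25, 7.00 and 7.28 on the standard arrays. Its difference was -0.39 ± 0.11 (adjusted p = 0.319), and a second probe set gave -0.23 ± 0.13. Flrt2 and Fgfbp3 differed by -0.47 ± 0.37 and -0.07 ± 0.06. The co-receptor Kl, as well as Fgfr4 and Flrt1, were under the filter.

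All 20 genes for heparan sulfate carriers and their enzymes passed the filter, with 1 higher and 4 lower at an unadjusted p under 0.05 and a median difference of 0.04. Heparanase (Hpse), which cuts heparan sulfate chains, read 6.79 and 6.70 on the cafeteria arrays, and 7.18, 7.08 and 7.09 on the standard arrays, a difference of -0.37 ± 0.06 (SE; limma, adjusted p = 0.239). Syndecan 1 (Sdc1), a membrane carrier of these chains, read 7.98 and 8.31 on the cafeteria arrays, and 7.66, 7.39 and 7.50 on the standard arrays, a difference of 0.63 ± 0.14. The glypicans Gpc6 and Gpc4, carriers anchored by a lipid, differed by -0.36 ± 0.08 and -0.27 ± 0.06. Dimmer Gpc6 probe sets differed by -0.16, -0.02 and -0.0008. The glypicans Gpc2, Gpc1 and Gpc3 differed by -0.32 ± 0.08, 0.33 ± 0.12 and -0.005 ± 0.20. Over the whole list the diets did not overlap for 4 genes higher and 5 lower in cafeteria samples, against 29.4% of all genes tested.

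Of 20 genes that relay the signal inside the cell, 14 passed the filter, with 1 higher and 0 lower at an unadjusted p under 0.05. The ERK kinase gene Map2k2 differed by 0.20 ± 0.06 (SE; limma, adjusted p = 0.324). Pik3r1, the regulatory subunit of PI3K, read 8.13 and 6.59 on the cafeteria arrays, and 8.41, 8.54 and 8.85 on the standard arrays, so its difference of -1.24 ± 0.49 (adjusted p = 0.408) came with a wide gap between the cafeteria animals. Plcg1 and the docking protein gene Frs2 differed by -0.19 ± 0.08 and -0.14 ± 0.06. The list had 3 genes with a positive and 11 with a negative difference, a median of -0.11.

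Among 16 feedback genes and targets of the pathway, 13 passed the filter, with 2 higher and 2 lower at an unadjusted p under 0.05. These were Ccnd1 at -0.82 ± 0.08, the ERK phosphatase gene Dusp6 at -0.62 ± 0.12, Spry4 at 0.29 ± 0.10 and Spred3 at 0.14 ± 0.05 (SE, limma adjusted p = 0.171 to 0.390). The list had 4 genes with a positive and 9 with a negative difference. Its median was -0.28, against -0.0027 over all genes tested. Of 12 genes that control Fgf21 or lie on its path, 8 passed, with 1 lower at an unadjusted p under 0.05. This was Mlxipl, the carbohydrate-response factor that binds E-boxes, which read 7.08 and 7.49 on the cafeteria arrays, and 7.62, 8.26 and 8.19 on the standard arrays. Its difference was -0.74 ± 0.25 (adjusted p = 0.359), while Fgf21 itself lay 0.55 higher. The stress gene Ddit3 differed by 0.28 ± 0.12, Adipoq by 0.16 ± 0.09 and Fap, a protease that cleaves FGF21 in humans, by 0.37 ± 0.22. Atf4, the gene of the factor that binds the stress-response element, differed by 0.03 ± 0.11 and overlapped between the diets.

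**Figure D5:**
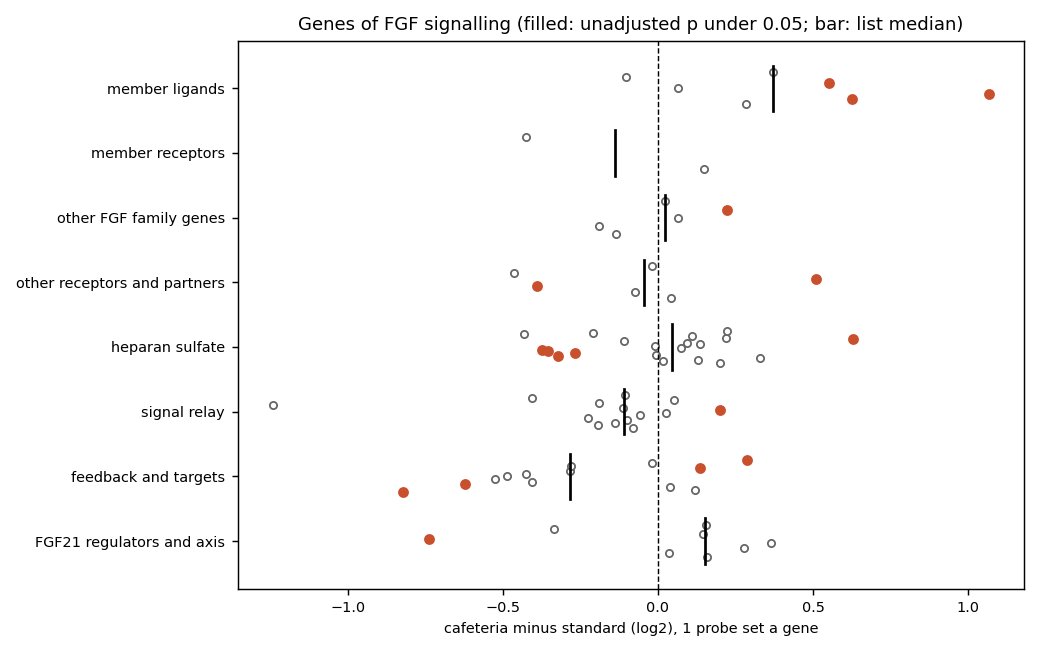
Difference between the diets (horizontal axis, cafeteria minus standard, log2) for the genes of each list that passed the filter, 1 probe set a gene; filled points have an unadjusted p under 0.05 and black bars are list medians. The 3 filled points of the FGF ligands at the top lie at 0.55, 0.63 and 1.07.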

How the data were processed

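The values are log2 expression levels per probe set and array, as the authors deposited them, made with RMA and the affy package per the submitters' processing notes. RMA makes the array distributions alike, which can hide a shift shared by most transcripts. Its version, array batches and a genome build are not stated there. Probe sets were named from GEO's annotation of the platform.

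From these values 57 control probe sets and those with a mean over all 5 arrays at or below the 30th percentile were left out, which left 21729. Diets were compared with limma 3.58.1 in R 4.3.3 (lmFit, eBayes, two-sided, 3 residual degrees of freedom), cafeteria minus standard, with Benjamini-Hochberg adjustment over all of them and a threshold of 0.05. Single probe sets also had an exact permutation test. The procedure was tested on simulated arrays. For gene lists the probe set with the highest mean stood for a gene. Up to 4 genes a list with the smallest unadjusted p are named, and Atf4 and the other glypicans besides. The FGF genes and all lists were chosen with earlier results of these data known. Promoter windows came from RefSeq's GRCr8. Figures used matplotlib 3.10.9 in Python 3.11.15.

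Alternatives were other filters, normalizations and variance models, array weights, a replicate block, an acinar covariate, and leaving out each array. A further alternative dropped probe sets with names ending in _x_at or _s_at, and it kept all 15 tested FGF probe sets.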

Additional observations from a re-analysis of the deposited data

How the results depend on the processing

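Each FGF difference was recomputed under 16 alternatives where its probe set was tested, and under none of them did an FGF probe set reach an adjusted p under 0.05 (limma). Fgf18, Fgf10 and Fgf21 stayed positive with an unadjusted p under 0.05 in every alternative that tested them, over ranges of 0.90 to 1.23, 0.43 to 0.83 and 0.47 to 0.63. A filter at the 50th percentile left all 3 out, so the count of FGF probe sets at an unadjusted p under 0.05 was 0, against 3. With each array left out in turn, that count ran from 3 to 6, highest without cafeteria replicate 2. The count over all probe sets ran from 1981 to 4171 (2754 with all arrays) and that of pathway genes from 9 to 24 (14 with all arrays), both highest without cafeteria replicate 1. Differences that changed sign when an array was left out were those of Fgf7 (-0.39 to 0.18), Fgf9 (-0.024 to 0.76 on 1392865_at and -0.033 to 0.84 on 1370747_at) and Fgf1 on 1387301_at (-0.18 to 0.67). Same replicate numbers in the titles were not treated as pairing. Correlations between the deviations of same-numbered arrays were 0.08 and -0.04. With 2 cafeteria arrays the deviations mirror each other (0.08 and -0.08 against standard replicate 1), so these values cannot decide on pairing. A replicate block gave the same differences for Fgf18, Fgf10 and Fgf7 as leaving out standard replicate 3, since no cafeteria array has that number. It gave 4 FGF probe sets at an unadjusted p under 0.05 in limma and turned Fgf1 on 1387301_at to -0.024. The block changed no call at the adjusted threshold. The number of arrays, 2 against 3, and the low brightness of Fgf2, Fgf10, Fgf18 and Fgf21 limit what can be read from these values.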
